A study of Homo sapiens with 4 samples.

Results

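The Krüppel-like factors (KLFs) are transcription factors that bind GC-rich and CACCC sequences through zinc fingers at their carboxyl end. They were examined in TT-Seq data, which measure newly made RNA through a brief labeling with 4-thiouridine (4sU), from HCT116 cells. HCT116 is a colorectal carcinoma line, and the cells used here are a derivative, KAP1_dTAG_CloneD5, which is 1 clone in which endogenous KAP1 (TRIM28) carries a degron tag that the compound dTAG-13 directs to degradation. All 4 libraries come from this tagged clone, grown in medium with serum, with 2 libraries (replicates 1 and 2) from cells given the vehicle DMSO and 2 from cells given 500 nM dTAG-13 for the same 8 h, each followed by 10 min in 500 μM 4sU. Each count covers the whole interval of a protein-coding gene in hg38. The 10 KLF genes described are KLF2, KLF3, KLF4, KLF5, KLF6, KLF7, KLF9, KLF10, KLF11 and KLF13, found by Ensembl identifier among the 19901 genes of the count table. All 10 passed the minimum of 50 counts in each of the 4 libraries, as did 12612 genes in all, and their counts ranged from 590 to 20761.

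The family falls into branches by the partners of the amino-terminal part of the protein. KLF2, KLF4, KLF5, KLF6 and KLF7 belong to the branch known mostly for activation. KLF3 recruits the corepressor CtBP, as do KLF8 and KLF12. KLF9, KLF10, KLF11 and KLF13 recruit the corepressor Sin3A. In the gut epithelium KLF5 is known from the dividing crypt cells and KLF4 from the differentiated cells above them. Several KLF genes are also induced within minutes by serum and growth factors.

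For the 3 members with the largest log2 fold changes in the main analysis, the 250 bases before a RefSeq start (GRCh38.p14) are shown. Counts over whole genes do not show which start was used. Capitals mark letters that match, on either strand, the GC box GGGCGG, the CACCC box CACCC, the CCAAT box CCAAT or a MEF2 site, the motif of the MEF2 factors through which ERK5 signaling is known to activate KLF2. The GC box and the CACCC box are also the kind of site that KLF and SP proteins bind. Of the 2 listed starts of KLF5 the downstream one is shown.
KLF2, chr19:16324576-16324825, + strand: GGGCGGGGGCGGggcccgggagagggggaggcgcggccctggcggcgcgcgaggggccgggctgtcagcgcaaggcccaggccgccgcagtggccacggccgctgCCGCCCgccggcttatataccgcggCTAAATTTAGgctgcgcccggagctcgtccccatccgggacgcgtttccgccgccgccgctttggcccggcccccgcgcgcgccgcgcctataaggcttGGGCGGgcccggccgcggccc
KLF5, chr13:73058755-73059004, + strand: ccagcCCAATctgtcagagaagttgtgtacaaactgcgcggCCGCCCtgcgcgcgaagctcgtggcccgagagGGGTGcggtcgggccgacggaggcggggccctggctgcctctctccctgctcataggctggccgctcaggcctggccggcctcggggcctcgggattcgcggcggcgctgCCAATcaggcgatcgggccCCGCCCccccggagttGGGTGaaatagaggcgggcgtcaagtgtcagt
KLF6, chr10:3785210-3785459, - strand: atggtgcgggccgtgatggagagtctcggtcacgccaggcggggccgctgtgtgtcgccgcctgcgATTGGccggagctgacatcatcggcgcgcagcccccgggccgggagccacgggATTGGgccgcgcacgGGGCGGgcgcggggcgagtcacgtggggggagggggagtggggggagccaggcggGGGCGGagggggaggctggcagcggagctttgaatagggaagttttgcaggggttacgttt
The KLF2 window has a GC content of 80.0% and holds 4 GC boxes, 2 of which abut, and 1 match to the MEF2 site from 120 to 111 bases before the start. The KLF5 window holds 2 GC boxes, 2 CACCC boxes and 2 CCAAT boxes, and the KLF6 window 2 GC boxes and 2 CCAAT boxes. None of the matches in these 3 windows overlaps another. Of all 35116 windows of this length, 42.6% hold a GC box, 54.7% a CACCC box, 32.0% a CCAAT box and 1.75% a MEF2 site. Over 8 of the 10 members there were 13 such windows, and they were also searched for the CRE TGACGTCA, the AP-1 site TGANTCA, the TATA box TATAAA, the ETS site CCGGAAG and the CArG box of the serum response factor. A CArG box was found in 1 of the 4 windows of KLF7 (1.16% of all windows) and a CRE in 1 of the 2 windows of KLF11 (1.65%), where its last letters overlap a CACCC box. The upstream window of KLF5 holds a TATA box (10.7% of all windows). The AP-1 site (6.57%) and the ETS site (8.52%) matched in none of the 13 windows, which says only that these letters are not there. KLF3 and KLF10 have no entry.

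With DMSO, the level of nascent RNA per gene length differed by 29.7-fold between the highest and the lowest member. These levels are counts scaled by the normalized library size to a common total (CPM) divided by the gene length in kilobases, as means of 2 libraries. KLF6, a broadly expressed factor known to restrain growth, was highest at 15.8 CPM per kilobase, at the 97.9th percentile of all tested genes. KLF10, first known as a gene induced by TGF-beta, followed at 7.69 CPM per kilobase (94.5th percentile). KLF4 and KLF5 stood side by side at 4.25 and 4.09 CPM per kilobase. Their library ranges overlapped, from 4.04 to 4.46 for KLF4 and from 3.86 to 4.32 for KLF5. KLF3 and KLF2 came next at 3.22 and 3.07 CPM per kilobase, again with overlapping ranges. KLF13 stood at 0.912 CPM per kilobase, and KLF9 and KLF11 overlapped at 0.671 and 0.626. KLF7, known from growing neurons, was lowest at 0.532 CPM per kilobase (31.4th percentile). With dTAG the order began with KLF6 and KLF10 as before (20.9 and 7.55 CPM per kilobase), and KLF5, at 6.06, stood above the range of KLF4, at 4.96 (4.42 to 5.49). KLF2, at 4.22, stood above KLF3, at 3.58.

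**Figure D1:**
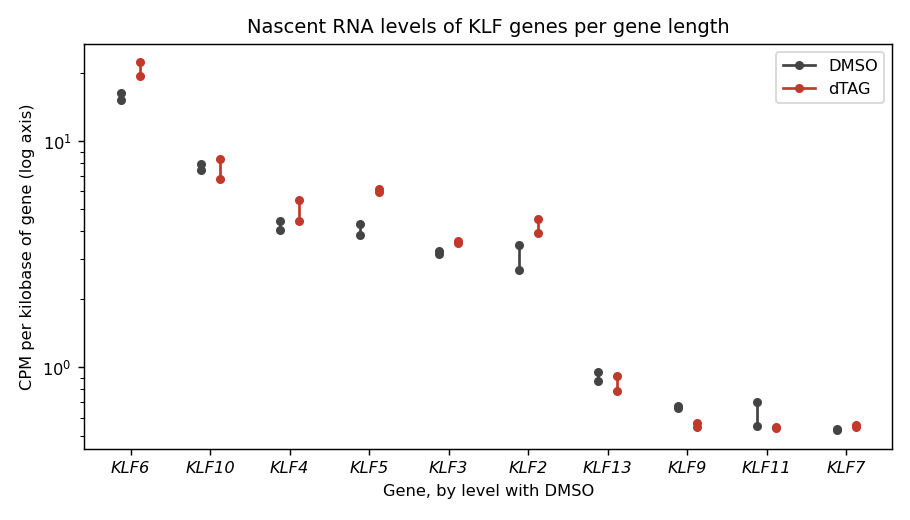
Nascent RNA level of each KLF gene in CPM per kilobase of gene (log axis) with DMSO (gray) and dTAG (red), where points are single libraries and lines join the 2 libraries of a condition. KLF6 is highest in both conditions (15.8 and 20.9), and 4 genes lie below 1 CPM per kilobase.

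Between the conditions, KLF5 and KLF6 were higher with dTAG, and no member was lower at an adjusted p under 0.05. Every p of the main analysis comes from the two-sided quasi-likelihood F test of edgeR. Alternatives named for the likelihood ratio test or DESeq2 used those tests instead. The adjustment, after Benjamini and Hochberg, covers all tested genes. Among all 12612 tested genes, 3.44% were called higher and 3.66% lower by this rule. The 2 called members were 2 of 10, and 4 of 10 members had an unadjusted p under 0.05, as did 3355 of all tested genes. No member reached 1.5-fold in the main analysis. Apart from ERCC totals, KLF2 (up to 0.82 on the log2 scale) and KLF5 (up to 0.65) did in some alternatives. With ERCC totals, which raised all genes, KLF2 (1.14), KLF3 (0.79), KLF4 (0.87), KLF5 (1.19), KLF6 (1.05), KLF7 (0.70) and KLF10 (0.59) did. In such bulk libraries, fewer cells that transcribe a gene and less RNA made per cell cannot be told apart. Both dTAG libraries lay above both DMSO libraries for 5 members (28.1% of all tested genes) and below them for 2 (30.7%), and they overlapped for 3. The members had a median log2 fold change of 0.10, against -0.015 for all tested genes. Among the latter the 5th and 95th percentiles were -0.45 and 0.30.

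KLF5 (ENSG00000102554.13, chr13:73054975-73077542), a factor of proliferating epithelium, had the largest log2 fold change among the members in the main analysis, though that of KLF2 was larger in some alternatives. It stood at 97.6 and 87.2 CPM with DMSO and at 139 and 135 CPM with dTAG. The groups were well apart, and the dTAG libraries lay close together. The mean went from 92.4 ± 7.36 to 137 ± 3.22 CPM (SD, n = 2), a fold of 1.48, or 0.57 on the log2 scale with a standard error (SE) of 0.086 (adjusted p = 4.3e-04). This was the 99.3rd percentile of the fold changes of all tested genes. Of the 16 alternative analyses, 14 called KLF5 higher. The call was lost without dTAG replicate 1 (0.55, adjusted p = 0.057) and with the ERCC spike-in totals as library sizes (1.19, adjusted p = 0.47).

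KLF6 (ENSG00000067082.14, chr10:3775995-3785281) stood at 141 and 152 CPM with DMSO and at 207 and 181 CPM with dTAG. Its libraries did not overlap between the conditions, and dTAG replicate 1 was the highest. The means were 147 ± 8.19 and 194 ± 18.6 CPM (SD, n = 2). This is 0.41 on the log2 scale (SE 0.092, adjusted p = 0.011). Of the 16 alternatives, 12 called it higher, and the value stayed positive in all 16. Without dTAG replicate 1 it was 0.31 (adjusted p = 0.50), and without dTAG replicate 2 it was 0.50 (adjusted p = 0.22). With the replicate block its adjusted p was 0.058, and over all alternatives its adjusted p ranged from 7.0e-10 to 0.50.

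KLF2 (ENSG00000127528.5, chr19:16324816-16327874), a factor of quiescent endothelial and T cells that responds to ERK5 signaling, did not pass the test but had the second largest value among the members. It stood at 8.23 and 10.6 CPM with DMSO and at 13.8 and 12 CPM with dTAG. Both dTAG libraries lay above both DMSO libraries, and the 2 DMSO libraries differed from each other more than the 2 dTAG libraries did. The log2 fold change was 0.46 (SE 0.15, adjusted p = 0.059), and 9 of the 16 alternatives called it higher. The value depended on the setting more than that of KLF5. It was 0.29 without DMSO replicate 1, 0.76 with an ERCC factor as a covariate and 0.82 after removal of the trends on GC content and gene length. Its adjusted p ranged from 2.3e-05 to 0.54 over the alternatives.

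KLF4 (ENSG00000136826.14, chr9:107484851-107490482), a factor of barrier epithelia that is also used in reprogramming to pluripotency, stood at 22.7 and 25.1 CPM with DMSO and at 30.9 and 24.9 CPM with dTAG. The second dTAG library lay within the DMSO range. The log2 fold change was 0.22 (SE 0.11, adjusted p = 0.22). It was 0.061 without dTAG replicate 1 and 0.46 after removal of the GC and length trends, where it was called higher, and its adjusted p lay between 1.3e-03 and 0.91 under the alternatives. KLF7 (ENSG00000118263.14, chr2:207074136-207167267) stood at 49.5 ± 0.634 CPM with DMSO and at 51.4 ± 0.841 CPM with dTAG (SD, n = 2). The groups did not overlap but differed by little, with a log2 fold change of 0.055 (SE 0.087, adjusted p = 0.71) that was negative with upper-quartile scaling (-0.019), without the length trend (-0.025) and without the GC and length trends (-0.050).

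KLF3 (ENSG00000109787.12, chr4:38664195-38701042), the member that recruits CtBP, stood at 120 and 117 CPM with DMSO and at 133 and 131 CPM with dTAG. The replicates were close and the groups did not overlap. Its log2 fold change was 0.15 (SE 0.083, adjusted p = 0.24). KLF3 shares 732 bases with the antisense RNA KLF3-AS1. Opposite-strand RNAs also cover 766 bases of KLF4, 1148 of KLF7 (MYOSLID) and 416 of KLF11, and no source used here says if the counts are strand-specific.

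The 4 members that recruit Sin3A had log2 fold changes below 0, none of them called, and all 4 were above 0 with ERCC totals as library sizes. KLF9 (ENSG00000119138.4, chr9:70384596-70414624), a gene induced by glucocorticoids and thyroid hormone, stood at 20.0 and 20.3 CPM with DMSO and at 17.1 and 16.4 CPM with dTAG. Its replicates were tight and its groups apart. The log2 fold change was -0.27 (SE 0.11, adjusted p = 0.14). It was -0.29 after removal of the GC and length trends, where it was called lower, and its adjusted p lay between 0.016 and 0.95 under the alternatives. KLF11 (ENSG00000172059.10, chr2:10042848-10054836), which like KLF10 is induced by TGF-beta, stood at 6.60 and 8.41 CPM with DMSO and at 6.5 and 6.54 CPM with dTAG. DMSO replicate 1 lay close to the dTAG libraries and DMSO replicate 2 above them. The log2 fold change of -0.20 (SE 0.16, adjusted p = 0.42) was -0.020 without DMSO replicate 2 and -0.37, a call, without DMSO replicate 1 (adjusted p = 0.040, in alternatives from 0.040 to 0.96). KLF13 (ENSG00000169926.10, chr15:31326854-31435665) stood at 94.9 and 104 CPM with DMSO and at 99.8 and 85.5 CPM with dTAG. Its groups overlapped, at a log2 fold change of -0.10 (SE 0.091, adjusted p = 0.50). KLF10 (ENSG00000155090.14, chr8:102648778-102655902) stood at 56.3 and 53.3 CPM with DMSO and at 59.3 and 48.4 CPM with dTAG. The dTAG libraries lay on either side of the DMSO libraries, and the log2 fold change of -0.025 (SE 0.098, adjusted p = 0.89) was -0.18 without dTAG replicate 1 and 0.11 without dTAG replicate 2.

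Several members gained a call when a DMSO library was left out. Without DMSO replicate 1, where 5491 of all genes were called, KLF3 was called higher (0.18), and KLF9 (-0.28) and KLF13 (-0.16) were called lower beside KLF11. Without DMSO replicate 2, where 1499 genes were called, KLF2 (0.65) and KLF4 (0.30) were called higher.

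**Figure D2:**
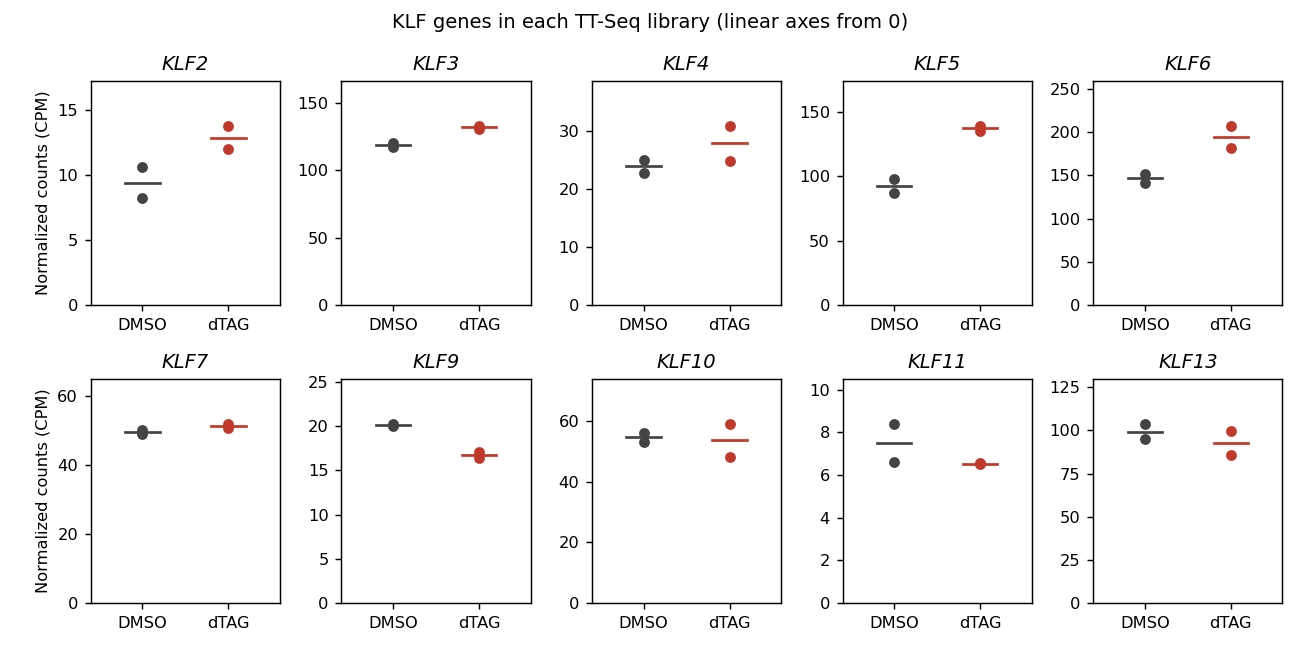
Normalized counts (CPM, linear axes from 0) of the 10 KLF genes in the 2 DMSO libraries (gray) and the 2 dTAG libraries (red), with horizontal lines at the means. The groups are farthest apart for KLF5 (87.2 and 97.6 against 135 and 139), and they overlap for KLF4, KLF10 and KLF13.

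By branch, the 5 members of the activating branch all had positive log2 fold changes, except for KLF7 under the 3 settings named above, from 0.055 to 0.57 with a median of 0.41, and 2 of them were called. The 4 members that recruit Sin3A ranged from -0.27 to -0.025 with a median of -0.15, and 0 were called. Among all tested genes 3.44% were called higher and 3.66% lower, so that 0 calls among 4 genes say little. Apart from the ERCC totals, KLF11 (0.023) and KLF13 (0.022) were positive with the ERCC factor, and KLF13 also without dTAG replicate 2 (0.0084). KLF10 was positive without the length trend (0.14), without both trends (0.076), without DMSO replicate 1 (0.015) and without dTAG replicate 2. These branches were drawn up after the values had been seen, so that the split is a description and no test was made of it. The other genes of the family complete the picture. Of the 8 other KLF genes, 5 were tested, and KLF12, a relative of KLF3 that also recruits CtBP, was called higher. KLF12 stood at 62.3 and 52.3 CPM with DMSO and at 71.6 and 80.2 CPM with dTAG, a log2 fold change of 0.41 (SE 0.095, adjusted p = 0.015). It was called in 11 of 16 alternatives. The call was lost with the ERCC factor by either test (0.12), with ERCC totals (1.03), without dTAG replicate 1 (0.49) and without dTAG replicate 2 (0.32), and the adjusted p lay between 9.9e-11 and 0.79. KLF12 lies on chromosome 13 at 609 kb from KLF5, and 0 genes of the count table lie between them. KLF8, which also recruits CtBP, stood at -0.074 (SE 0.27) from 91 to 124 counts, opposite in sign to KLF3 and KLF12. KLF15 stood at -0.088 (SE 0.14), and neither of them was called. Apart from ERCC totals, KLF8 ranged from -0.55 to 0.17 and KLF15 from -0.18 to 0.15. KLF14, which is placed with the Sin3A-recruiting genes, stood at 0.31 (SE 0.26) from 84 to 126 counts, and KLF16, of the same branch, at -0.072. The sign of KLF16 depended on the setting. It was called higher with the ERCC factor (0.29) and without the GC and length trends (0.28), and lower without DMSO replicate 1 (-0.28). KLF1, KLF17 and KLF18 had at most 6 counts in any library.

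**Figure D3:**
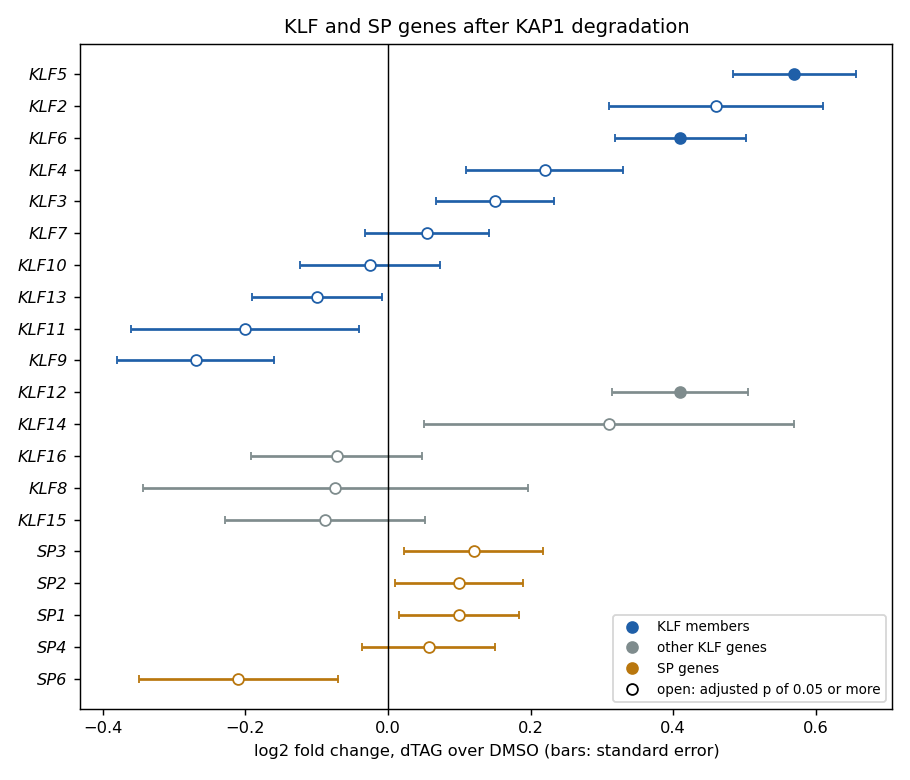
Log2 fold change (dTAG over DMSO) of the tested KLF and SP genes, with standard errors as bars and filled points for an adjusted p under 0.05. KLF5 (0.57), KLF6 (0.41) and KLF12 (0.41) are filled, and the 4 Sin3A-recruiting members KLF10, KLF13, KLF11 and KLF9 lie left of 0 here, though not with ERCC totals.

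Ratios between members within a library do not depend on how libraries are scaled, and show unequal change without showing which gene moved. The ratio of KLF5 to KLF4, both per kilobase, was 1.07 and 0.866 with DMSO and 1.12 and 1.35 with dTAG. KLF5 over KLF3 was 1.32 and 1.22 with DMSO against 1.71 and 1.68 with dTAG. KLF6 over KLF10 was 1.92 and 2.19 against 2.68 and 2.87. KLF6 over KLF7 was 28.8 and 30.6 against 40.0 and 35.7. KLF5 over KLF9 was 6.5 and 5.71 with DMSO against 10.8 and 10.9 with dTAG. In these 5 ratios both dTAG libraries lay above both DMSO libraries. The same held for KLF2 over KLF4, at 0.666 and 0.775 with DMSO and 0.823 and 0.885 with dTAG. For KLF2 over KLF6 the conditions overlapped, at 0.177 and 0.211 with DMSO and 0.203 and 0.201 with dTAG, and so they did for KLF10 over KLF11. The ratios were chosen after the values had been seen.

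Of the 10 members, 5 are in the study's list of genes induced at least 2-fold by serum, which was drawn from RNA-Seq of other samples. They are KLF2, KLF4 and KLF6, which are also in its 4-fold cluster, and KLF5 and KLF10. In the TT-Seq libraries, from cells in steady culture with serum, the median over these 5 genes was 0.41 on the log2 scale. Of them 2 were called higher and 0 lower, where 3.44% and 3.66% of all tested genes were. The other 5 had a median of -0.10, with 0 called. KLF2, KLF4, KLF5 and KLF6 are also in the activating branch, and both called genes are among them. This split and the one by branch thus rest largely on the same genes, and no test was made of it. Within the 5 serum-induced genes the values ran from -0.025 (KLF10) to 0.57 (KLF5).

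Gene composition moved with the fold changes. Across all tested genes the log2 fold change followed the GC content of the gene (Spearman's rho -0.56) and its length (rho 0.42), a description across genes that share the same 4 libraries. KLF5, at 39.0% GC (17.7th percentile), lies toward the low end of GC content. KLF2, at 65.5% GC (98.8th percentile) and 3.06 kb, lies at the high end, and its log2 fold change was nonetheless at the 98.6th percentile. With each library's trends on GC content and length removed, KLF5 stood at 0.48, KLF6 at 0.50, KLF2 at 0.82 and KLF4 at 0.46, and these 4 members were called higher, with KLF9 called lower. The part of GC content in the members' values was not tested beyond this.

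**Figure D4:**
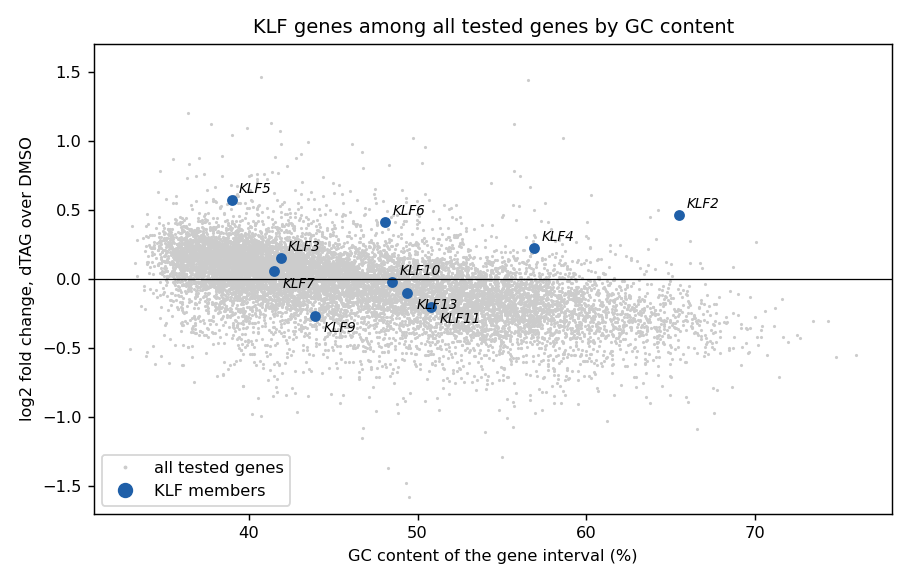
Log2 fold change (dTAG over DMSO) against the GC content (%) of the gene interval for all tested genes (gray, those beyond the vertical axis limits not drawn) and the KLF genes (blue). Among the fold changes of all tested genes, KLF2 (65.5% GC, 0.46), KLF6 and KLF5 lie at the 98.6th, 98.0th and 99.3rd percentiles. KLF4 lies at the 89.1st percentile, and KLF9, at 43.9% GC, at the 16.4th.

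Among regulators of the family, the ERK5 and MEF2 pathway is known to activate KLF2 and KLF4. It was represented by 10 genes, all tested, with 0 higher, 1 lower and a median log2 fold change of 0.10. They include CCM2, KRIT1 and PDCD10, which are not activators in it, so that this median gives no direction for the pathway. The lower gene was MEF2C, a MADS-box factor, which fell from 203 and 172 CPM with DMSO to 144 and 154 CPM with dTAG (log2 fold change -0.33, adjusted p = 0.037), and was called in 11 of 16 alternatives. The kinase gene MAPK7, which encodes ERK5 and overlaps B9D1 and MFAP4, stood at -0.42 (adjusted p = 0.13). Of 12 genes of the TGF-beta and SMAD pathway, which induces KLF10 and KLF11, 1 was higher and 1 lower, with a median of 0.12. Inhibitors such as SMAD7 are in this list too, so that its median gives no direction for the pathway. SMAD7, the inhibitory SMAD, fell from 91.6 and 115 CPM to 82.1 and 75.3 CPM (log2 fold change -0.39, adjusted p = 0.020). SMURF2, a ubiquitin ligase for SMADs and receptors that overlaps CEP95, rose from 512 and 432 CPM to 599 and 639 CPM (log2 fold change 0.39, adjusted p = 0.031). SMAD7 was called in 11 of 16 alternatives and SMURF2 in 10, and both calls were lost with the ERCC factor (-0.14 and 0.13) and without either dTAG library. That of MEF2C was also lost without either dTAG library (-0.28 and -0.38). Of 8 glucocorticoid-inducible genes, listed beside KLF9, 7 were tested and 0 were called, with a median of -0.21. TSC22D3, a standard glucocorticoid target that overlaps NCBP2L, stood at 0.46 (adjusted p = 0.058) and FKBP5 at 0.20, opposite in sign to KLF9. SGK1 (-0.46), NFKBIA (-0.26), DUSP1 (-0.23), GLUL (-0.21) and PER1 (-0.10) had the sign of KLF9.

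Of 22 genes known as KLF targets, 15 were tested, with 1 higher, 2 lower and a median of -0.21. CDKN1A, the p21 cell cycle inhibitor gene that KLF4 and KLF6 are known to activate, was called in 15 of 16 alternatives, all but ERCC totals (-0.084). It fell from 204 and 244 CPM with DMSO to 140 and 126 CPM with dTAG, a log2 fold change of -0.75 (SE 0.097, adjusted p = 5.6e-05). EGFR, a growth factor receptor listed as a KLF5 target, rose from 221 and 211 CPM to 268 and 263 CPM (log2 fold change 0.30, adjusted p = 0.047). EGFR was called in 9 of 16 alternatives, and not without either dTAG library (0.29 and 0.31). The third called gene, SMAD7, is in both lists. CCND1 (cyclin D1) stood at 0.17 and MYC at -0.013, neither of them called. Of the endothelial KLF2 targets, NOS3, the endothelial nitric oxide synthase gene, which overlaps ATG9B, stood at -0.26 (adjusted p = 0.23) from 801 to 1111 counts, and THBD and S1PR1 had at most 28 counts in any library.

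The libraries held 93105627 to 102314741 gene counts. All 6 epithelial markers were tested, with a summed level of 1100 to 1220 CPM, while 5 endothelial markers summed to 2.25 to 3.54 CPM, 5 fibroblast markers to 5.2 to 5.91 CPM with COL1A2 at 0 counts, and 5 immune markers to at most 0.242 CPM. TRIM28 RNA stood at -0.37 on the log2 scale (adjusted p = 0.019), a call held in 8 of 16 alternatives, with -0.20 without the length trend, -0.10 without both trends, -0.23 with the ERCC factor and 0.28 with ERCC totals. It was also lost with the replicate block (adjusted p = 0.059, in alternatives from 4.4e-08 to 0.88), without dTAG replicate 1 (-0.45) and without dTAG replicate 2 (-0.30). Since dTAG-13 acts on the protein, TRIM28 RNA does not check the labels. Of all tested genes 434 were called higher and 461 lower. This split was 255 and 869 with upper-quartile scaling, 434 and 702 with the ERCC factor, 635 and 418 without the length trend and 1343 and 941 without the GC and length trends. Relative to gene counts, ERCC spike-ins came to 0.0150% and 0.0265% for DMSO and to 0.0136% and 0.0103% for dTAG. With them as library sizes, the median of all tested genes moved to 0.63. Relative to that shift, which made the log2 fold change of every member positive, KLF5 at 1.19, KLF2 at 1.14 and KLF6 at 1.05 still stood above it and KLF9 at 0.38 below it. The plot of the members under all analyses shows this shift beside the other settings.

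**Figure D5:**
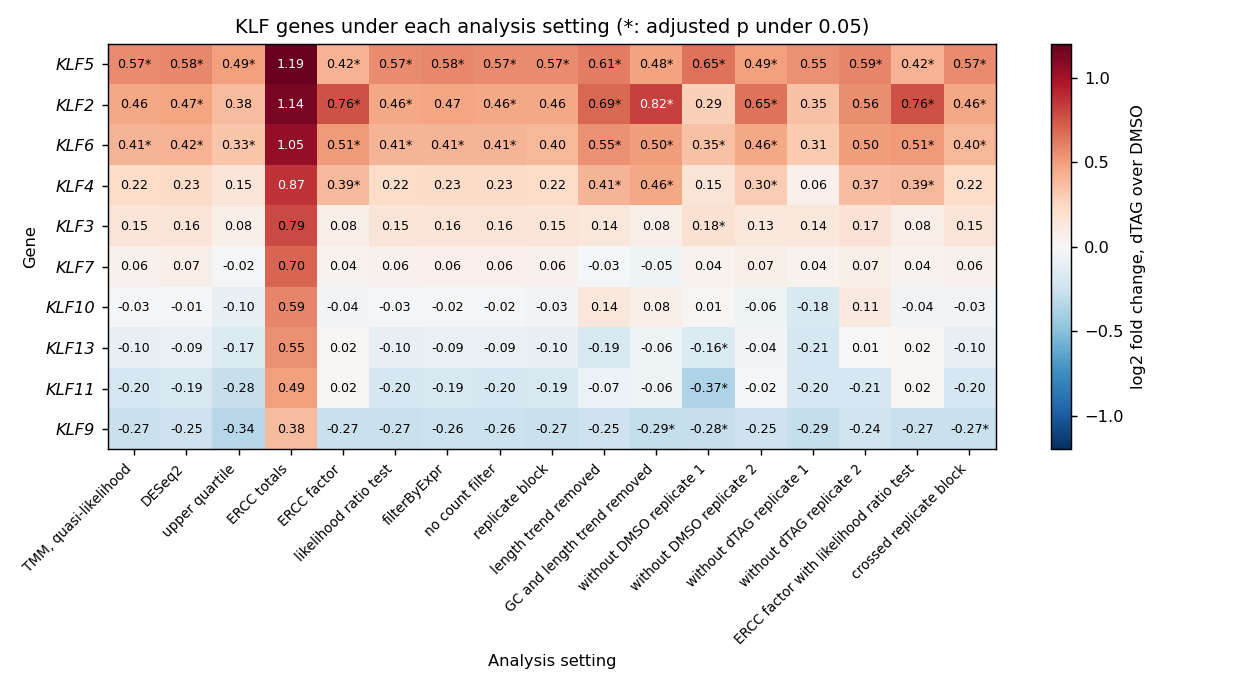
Log2 fold change (dTAG over DMSO; color and number) of the 10 KLF genes under the main analysis (first column) and 16 alternatives, with asterisks for an adjusted p under 0.05. KLF5 carries an asterisk in all columns but those with ERCC totals and without dTAG replicate 1, and the column with ERCC totals is positive throughout (0.38 to 1.19).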

How the data were processed

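Per the labels and the study's methods, nascent RNA of 4 libraries was sequenced in pairs of 50-base reads, which the authors checked with FastQC 0.11.8, trimmed with Trim Galore 0.6.4, mapped to hg38 with STAR and counted with featureCounts (Subread 1.6.3), with each protein-coding gene taken as 1 interval and 92 ERCC RNAs beside them. The deposited files hold these counts as whole numbers, not normalized. Strand and overlap settings are not given in the sources used here. GC content was computed from hg38, and 19784 of 19901 identifiers had a symbol and overlapped the same gene in GENCODE.

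The test used edgeR 4.0.16 under R 4.3.3 (TMM, quasi-likelihood F test, no block, since the methods name none) over 12612 genes that reached 50 counts in each of the 4 libraries, with Benjamini-Hochberg adjustment over them. The SE of a fold change is its size over the root of F. The methods name RUVSeq without its settings, so that spike-ins enter only the alternatives, which also include DESeq2 1.42.0 and lowess trends with a span of 0.3. For the ERCC factor, 1 factor was estimated from 14 ERCC RNAs after the RUVg method. Its values were -0.0473 and 0.804 for DMSO and -0.196 and -0.56 for dTAG. Both DMSO values thus lay above both dTAG values, so that this covariate cannot be fully told apart from the treatment. Calls gained or lost with it are to be read with that limit. All settings were run on simulated counts. These held no trends on GC content or length, no replicate blocks and no linked spike-ins, so they cannot show how well the settings for those work. With 93105627 to 102314741 counts per library, the spread between replicates, and not counting error, limits the precision of the members. The test takes this spread partly from all tested genes. Close replicates of a single member thus do not by themselves give it a small SE. The labels do not state that replicates are separate cultures, and p-values measure the spread between these libraries. Same-numbered libraries did not deviate together (r = -0.245 across genes). All 10 members are named, and from each other list the called genes, up to 5, with single uncalled genes added after their values were seen. Members and lists were chosen with earlier results of these data known.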

Additional observations from a re-analysis of the deposited data

How the results depend on the processing

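Against 895 genes called in the main analysis, 1593 were called by the likelihood ratio test, 1417 without a count filter, 340 with a replicate block, 2284 without the GC and length trends, 1357 with the ERCC factor and the likelihood ratio test, and 0 with ERCC totals (229 at an unadjusted p under 0.05). Leaving out 1 library gave 69 (dTAG replicate 2), 138 (dTAG replicate 1), 1499 (DMSO replicate 2) and 5491 (DMSO replicate 1), where the lone library of a group is assumed to vary like the other group. The count of called KLF genes, 2 in the main analysis, was 4 with the ERCC factor by either test, 4 without the length trend, 5 without the GC and length trends, 0 with ERCC totals, and 0 (without dTAG replicate 1) to 6 (without DMSO replicate 1, 3 of them lower) when 1 library was left out. With the replicate block it was 1 (KLF5), and labels do not say that a number marks a shared batch. With the numbers crossed, a block chosen after seeing the data, 3190 genes and 4 KLF genes were called. The ERCC factor with the likelihood ratio test was likewise added after seeing the data. The KLF median, 0.10 in the main analysis, was 0.030 with upper-quartile scaling and 0.75 with ERCC totals. Of 160 single values under the alternatives, 118 kept direction and call, 6 lost and 20 gained a call, and 16 changed sign, all of members not called. With ERCC totals KLF9 (0.38), KLF10 (0.59), KLF11 (0.49) and KLF13 (0.55) turned positive, by the shift of all genes. With the ERCC factor, by either test, KLF11 (0.023) and KLF13 (0.022) did. KLF7 was -0.019 with upper-quartile scaling, -0.025 without the length trend and -0.050 without both trends, and KLF10 was 0.14 and 0.076 in the last 2 settings. With 1 library left out, KLF10 ranged from -0.18 to 0.11 and KLF13 from -0.21 to 0.0084. Where no construction is named, the cause was not tested.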

Other observations

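The SP genes, the nearest relatives of the KLF family, had 5 of 9 members above the count minimum, and 0 were called. SP1, SP2, SP3 and SP4, the broadly expressed members, had log2 fold changes of 0.10, 0.10, 0.12 and 0.057, and SP6, an epithelial member, stood at -0.21 (SE 0.14). The signs of SP3, SP4 and SP6 depended on the setting. Apart from ERCC totals, SP3 ranged from -0.14 to 0.25, SP4 from -0.21 to 0.19 and SP6 from -0.42 to 0.17. Without DMSO replicate 1, where 5491 of all genes were called, SP3 (0.25) and SP4 (0.19) were called higher and SP6 (-0.42) lower. SP5, SP7, SP8 and SP9 had at most 50 counts in any library. Of 12 genes for KLF corepressors, among them CTBP1, CTBP2, SIN3A and the histone deacetylases HDAC1 and HDAC2, 12 were tested and 0 called, with a median of -0.0028. The 4 coactivator genes EP300, CREBBP, KAT2A and KAT2B had 0 calls and a median of -0.061.

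Of 10 ubiquitin ligase genes whose products are known to act on KLF proteins or their pathways, SMURF2 was called higher. The HECT ligase gene ITCH stood at 406 and 368 CPM with DMSO and at 472 and 493 CPM with dTAG, a log2 fold change of 0.32 (SE 0.098, adjusted p = 0.051). WWP1, a ligase for KLF5, stood at 0.086 (adjusted p = 0.58), and FBXW7, which marks KLF5 and KLF2 for degradation, at 0.25 (adjusted p = 0.14). STUB1 stood at -0.30 (adjusted p = 0.14).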
